A study of Mus musculus with 8 samples.

Results

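The largest H3K27ac domains of wild-type (wt) P5424 cells were the regions in which most bases lay under called peaks after neighbouring peaks had been joined. Peaks on 1 chromosome with gaps of at most 12.5 kb were joined into a domain, the peak bases of each domain were summed, and the 300 domains with the most peak bases were kept out of 18382 joined domains. The members were thus chosen by covered bases of the wt peak list alone, and these values are given as a description of the choice. The same intervals were then read in the peak list of ΔIkE120 cells, which had no part in the choice.

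P5424 is a mouse cell line that resembles T cell precursors. In ΔIkE120 cells, the IkE120 enhancer of *Ikzf1* had been deleted on both alleles with CRISPR/Cas9, and the cells were expanded from 1 clone, so that the deletion and other properties of that clone cannot be told apart. H3K27ac was measured by ChIP-seq in 1 library of wt and 1 library of ΔIkE120 cells, and the sources used here do not state whether these cells had been stimulated. With 1 library per genotype there were no replicates, so values are given with no test, and the depth of the libraries is unknown.

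Acetylation of lysine 27 of histone H3 marks active promoters and enhancers and is laid down by the acetyltransferases p300 and CBP. Where many acetylated elements stand close together, the stretch is often called a super-enhancer, and such stretches tend to lie at genes that define the identity of a cell. In T cell precursors these are genes of the T cell receptor complex, its coreceptors and the transcription factors of the lineage.

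Together the 300 domains held 2553 of the 34553 wt peaks (7.39%) and 8.23% of the 25189952 wt peak bases, although they were 1.63% of the joined domains. Of all joined domains, 10469 (57.0%) consisted of 1 peak. A member held 5252 to 16079 peak bases, with a median of 6274, in 3 to 23 peaks, with a median of 8. Members were therefore clusters of peaks and not long unbroken peaks: the longest peak of a member had a median of 1698.5 bases and at most 3370. From first to last peak base they spanned 13.5 to 123.6 kb, with a median of 38.0 kb, and peaks covered a median of 17.2% of that span. The densest was a domain at *Helz*, an RNA helicase gene, at chr11:107572073-107588178 (GRCm38), where peaks covered 42.6% of the span.

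Peaks of the members were longer than the other wt peaks but had a lower fold enrichment. Their median length was 676 bases, against 597 for the peaks of all other domains. Peak length entered the choice through the summed bases, so this difference only describes the choice. The authors' fold enrichment, which did not enter the choice, had a median of 2.52 in members and 3.07 elsewhere. The median −log10 q was 4.80 in members and 4.07 elsewhere. The highest fold enrichment in any member was 7.21, in a domain that holds *Eef2*, the gene of a translation elongation factor, with *Pias4* and *Dapk3*.

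The threshold ran through a dense part of the ranking. The last member, a domain of 13.5 kb at *Bcor*, which encodes a corepressor of BCL6, held 5252 wt peak bases and 4967 ΔIkE120 peak bases. Above it stood a domain without protein-coding gene on chromosome 13 (5256 wt bases), a domain of *Sstr3* and of the GTPase gene *Rac2* (5258), one around *Plcb3* and *Vegfb* (5276) and one around *Zdhhc8* and *Ranbp1* (5281). Just outside were domains at *Cd68* and *Eif4a1* with 5250 wt bases, in a stretch of chromosome 11 without protein-coding gene with 5236, at *Rhof* and *Setd1b* with 5232, at *Abr* with 5223 and at *Macrod1* with 5221. Members close to rank 300 thus differed from non-members by a few bases.

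The cell line was checked against genes that define lineages. All 14 of 14 T cell markers overlapped a wt peak, and 6 of 14 lay in a member: *Cd247*, *Ptcra*, *Thy1*, *Tcf7*, *Gata3* and *Cd2*. The others had smaller domains, among them *Cd3e* at rank 397, *Bcl11b* at rank 718 and *Cd5* at rank 10185. Of 34 markers of B, myeloid, erythroid, pluripotent and fibroblast cells, 13 overlapped a wt peak, beside 53.7% of all protein-coding genes, and 0 lay in a member. Of all genes with a wt peak 5.42% lay in members, so 0 of 13 is near that share. The highest of these was *Blk*, a Src family kinase gene of B cells, at rank 709. Next came *Cd14* at rank 1226, *Itgam* at 1259, *Pou5f1* at 1390 and *Klf1* at 1621, all above the T cell marker *Lck* at 1890. By list, a wt peak was overlapped by 3 of 8 B lineage and 4 of 8 myeloid markers. It was 3 of 6 erythroid, 2 of 6 pluripotent and 1 of 6 fibroblast markers. Among those that overlapped no wt peak were *Csf1r*, *Nanog* and *Col1a1*.

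In all, 661 protein-coding genes overlapped a member by at least 1 base, which is 3.02% of the 21900 protein-coding genes of the annotation. The count follows the processing, with 335 and 1479 genes at gaps of 5 and 25 kb, 374 and 1187 in 150 and 600 domains and 205 without peaks at gene starts. Of the 11764 genes that overlapped any wt peak, 638 did (5.42%). Genes in members had a median length of 10834 bases, against 25251 for all protein-coding genes with a wt peak, members' genes included. For 559 genes a start lay inside a member. A lone gene lay in 113 members, and 40 members held 5 or more genes, so that a domain cannot be assigned to 1 of its genes. The 5 lists of T cell genes together had 119 genes, of which 32 (26.9%) overlapped a member, in 29 domains. This number was 20 with gaps of 5 kb, 20 with peaks from the median q upward, 19 without peaks at starts and 42 with 600 domains. Counted over the 110 list genes with a wt peak, the share was 29.1%, beside 5.42% of all genes with a peak. For 25 of the 119 genes a start lay inside a member.

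Among transcription factors of the T lineage, 7 of 30 overlapped a member. This was 24.1% of the 29 with a wt peak, beside 5.42% of all genes with a peak. For 4 of the 30 a start lay inside a member. The domain of *Tcf7*, which encodes TCF1, a factor that Notch signals switch on in early T cell precursors, was the third largest at chr11:52275040-52361920. It held 15288 bases in 21 wt peaks and 14992 bases in 21 ΔIkE120 peaks, and also overlapped *Vdac1*, a gene of the outer mitochondrial membrane. *Gfi1*, a zinc finger repressor of lymphoid and myeloid differentiation, stood at rank 26 in a domain that also overlapped *Evi5*, with 9465 wt and 7978 ΔIkE120 bases. *Gata3*, needed from the first T cell steps on, stood at rank 96, with 7102 wt bases packed into 5 peaks over 18740 bases. In ΔIkE120 cells this domain held 5837 bases in 6 peaks. The Ikaros family gave 2 genes, *Ikzf3* (Aiolos) at rank 71 and *Ikzf1* (Ikaros) itself at rank 105. No start of *Ikzf3* lay in its domain, which held starts of *Grb7* and *Mien1*. The Ets factor gene *Fli1* stood at rank 196, with 5887 wt and 6596 ΔIkE120 bases.

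Of the 5 T cell lists, that of the T cell receptor and its proximal signalling had the highest share in members. It was 13 of 30 genes (43.3%), in 12 domains, and all 30 overlapped a wt peak. For 10 of the 30 a start lay inside a member. Of all genes with a wt peak 5.42% lay in members. Differences between the lists were not tested. The fourth domain, chr6:71307089-71376247, covered *Cd8b1* and *Cd8a*, the genes of both chains of the CD8 coreceptor, and had the most peaks of any member. It held 14833 wt bases in 23 peaks and 12179 ΔIkE120 bases in 14 peaks. *Thy1*, a surface glycoprotein of mouse T cells, was alone in the fifth domain with 14255 wt and 13273 ΔIkE120 bases. The partner coreceptor gene *Cd4* followed at rank 25, in a domain with *Lag3*, *Ptms* and *Mlf2* that held 9561 wt and 8531 ΔIkE120 bases. *Ptcra* encodes the chain that pairs with the newly made T cell receptor β chain in the pre-TCR. Its domain, shared with *Cnpy3*, *2310039H08Rik* and *Rpl7l1*, had 6756 wt and 6547 ΔIkE120 bases. Also in members were the kinase genes *Fyn* and *Prkcq*, the signalling chain gene *Cd247*, *Cd2*, the GTPase gene *Rhoh*, *Dntt*, which encodes the enzyme that adds nucleotides at recombination junctions, and *Ptprc*, the gene of the phosphatase CD45. The domains at *Fyn* and *Rhoh*, of ranks 27 and 28, held no start of these genes. Among the genes of the T cell lists that lay in members, the lowest ratio belonged to *Ptprc*, with 5819 wt and 3933 ΔIkE120 bases (ratio 0.676). *Lat*, an adaptor of the receptor, fell just short at rank 311 with 5195 wt bases.

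Receptor loci themselves were in the set too, although their segments are not annotated as protein-coding. The domain of rank 31, chr6:41527254-41559254, covered the D, J and constant segments of *Tcrb*, with 9323 wt and 9658 ΔIkE120 bases. Its 9 wt peaks were all overlapped by a ΔIkE120 peak. On chromosome 14, 3 members lay in the *Tcra* and *Tcrd* locus. They ranked 46 (8382 wt and 8104 ΔIkE120 bases, at the D and J segments of *Tcrd*), 50 (8234 and 6651, among V segments) and 163 (6170 and 4946, at J segments of *Tcra*).

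Cytokine receptor and JAK-STAT genes gave 7 of 24, in 5 domains. This was 31.8% of the 22 with a wt peak, beside 5.42% of all genes with a peak. For 6 of the 24 a start lay inside a member. *Stat5b*, *Stat5a* and *Stat3*, which encode transcription factors downstream of cytokine receptors, overlapped the sixth domain, chr11:100814273-100911399. It held 12937 wt bases in 19 peaks and 10472 ΔIkE120 bases in 13. Starts of *Stat5b* and *Stat5a* lay in it, but none of *Stat3*. The domain of *Socs3*, a feedback inhibitor of the same receptors, and of *Pgs1* had 8091 wt and 8383 ΔIkE120 bases. *Ifnar1* and *Ifngr1*, genes of interferon receptor chains, had 8173 and 6709 wt bases, and 6488 and 5880 ΔIkE120 bases. *Il2rg*, the common γ chain of interleukin receptors, was near the end at rank 271.

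Of homing and adhesion genes, 4 of 20 were in members. *Gnai2*, a G protein subunit that relays chemokine receptor signals, lay in the first domain, and *Itgal*, the α chain of the integrin LFA-1, in the ninth with 11778 wt and 11017 ΔIkE120 bases. The ninth domain also overlapped *Septin1*, *Zfp553*, *Zfp771*, *Dctpp1* and *Sephs2*. The β chain gene *Itgb2* and the actin regulator gene *Coro1a* stood at ranks 229 and 275. Of the Notch pathway 1 of 16 genes was in a member, *Notch1*, whose receptor sets T cell fate, at rank 16 with 10581 wt and 9505 ΔIkE120 bases. *Bcl2l1*, the gene of the survival protein Bcl-xL (rank 11, 11356 wt and 9862 ΔIkE120 bases), and the cyclin gene *Ccnd3* with *Taf8* (rank 19, 10313 and 10071) were 2 of 21 survival and cell cycle genes. *Junb* was 1 of 26 immediate early and feedback genes and *Mta2* 1 of 33 chromatin regulators. Counted over list genes with a wt peak, 4 of 16 homing and adhesion genes (25%) and 1 of 14 Notch genes (7.14%) lay in members. The same count gave 2 of 17 survival and cell cycle genes (11.8%). It gave 1 of 20 immediate early and feedback genes (5.00%) and 1 of 33 chromatin regulators (3.03%). Of all genes with a wt peak 5.42% lay in members, so the Notch, immediate early and chromatin shares were near that share.

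The other domains among the 20 largest were of mixed content. The first, chr9:107521244-107644702, ran over 15 genes from *Cacna2d2* to *Gnai2*, among them the tumour suppressor gene *Rassf1* and the hyaluronidase genes *Hyal1*, *Hyal2* and *Hyal3*, and held 16079 wt and 14361 ΔIkE120 bases. The second held a lone protein-coding gene, *Ly6e*, a lymphocyte surface antigen, with 16004 wt and 16216 ΔIkE120 bases, and ranked first by ΔIkE120 bases. The seventh covered *Ptpn6*, the gene of the phosphatase SHP-1, with *Emg1*, *Phb2*, *Grcc10*, *Atn1*, *Eno2*, *Lrrc23*, *Spsb2* and *Tpi1*. The tenth was a cluster of 12 histone genes with *Hfe* on chromosome 13, with 11446 wt and 10983 ΔIkE120 bases. *Rras2*, a Ras-related GTPase gene, was alone in the domain with the longest span (rank 12, 123.6 kb, 11156 wt and 9494 ΔIkE120 bases). Further domains of 1 gene were those of *Sema4d*, a semaphorin of lymphocytes (rank 15, 10680 and 10628), and *Mvb12b* (rank 17, 10551 and 8230). Those of *Ddit4*, *Anapc16* and *Ascc1*, of *Dedd2*, *Zfp526*, *Gsk3a* and *Erf*, and of *Phf19* and *Traf1* held between 8808 and 9087 ΔIkE120 bases. Within the 20 largest the ratio ran from 0.780 at *Mvb12b* to 1.01 at *Ly6e*.

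No protein-coding gene overlapped 42 members, and 8 of these overlapped no annotated gene of any kind. The largest of them was the eighth of all domains, chr12:107119508-107184518, with 11905 wt and 10570 ΔIkE120 bases 7372 bases from the predicted gene *Gm52008* and 725.9 kb from *Bcl11b*. A further member at rank 65 lay between it and *Bcl11b*, 124.7 kb from that gene, with 7610 wt and 5639 ΔIkE120 bases. *Bcl11b* encodes a factor that seals commitment to the T lineage, and distant enhancers of it are known on this side of the gene. Next in size, after the *Tcrb* domain, came members 17.7 kb from *Klf13* (rank 33, 9126 wt and 7170 ΔIkE120 bases), 138.4 kb from *Sdk2* on chromosome 11 (rank 42, 8679 and 7351) and the *Tcrd* domain of rank 46. Among the 8 without any gene was also a domain 10.1 kb from *Myb*, a gene of precursor proliferation (5382 and 4900), named after its values had been seen. Distances to the nearest protein-coding gene had a median of 29.9 kb over the 42.

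Members were unevenly spread over the chromosomes. Chromosome 11 held 55 of 300 (18.3%), with 9.12% of wt peaks, 9.58% of wt peak bases and 7.35% of protein-coding genes. Chromosome 7 followed with 23 members, and chromosomes 9 and 15 with 21 each. Chromosome X held 2 members, with 1.75% of wt peaks. Of the 300 members, 165 had another member within 1 Mb and 50 within 100 kb. This was not counted for other domains, so it does not show whether members lie closer together than those. The copy number of chromosomes in this line was not measured, and the median fold enrichment by chromosome was lowest on chromosome 11 among those with members, at 2.88 against 3.04 for all wt peaks. Whether copy number has a part in the uneven spread was not tested. The member chr9:3000144-3038125 lay at the very start of the sequenced part of its chromosome and held no gene, and it is named here after its values had been seen.

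In ΔIkE120 cells, the same 300 intervals held 1830802 covered bases, against 2073781 in wt cells, a ratio of 0.883. The whole ΔIkE120 list had 29902 peaks and 22143580 bases, or 0.879 of the wt list, but this counts ΔIkE120 peaks outside all wt domains. Read inside all joined wt domains, the ratio was 0.789, and below rank 1200 it was 0.766. Per domain, the ratio of ΔIkE120 to wt covered bases had a median of 0.888, with quartiles of 0.815 and 0.967 and a range of 0.410 to 1.21. It was above 1 in 36 of 300 members, against 6.7% of all joined domains and 40 of the next 300 in rank. A covered length says how many bases were called as peaks, not how high the signal was, and it moves with the depth of the library.

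Of the 300 domains, 13 (4.33%) had a ratio of 2/3 or lower, against 35.6% of all 18382 joined domains, and 0 had a ratio of 1.5 or higher, against 0.18% of all. The first share depends on the processing: it was 0% with domains from the ΔIkE120 list, 1.00% after scaling by the list-wide ratio, 12.3% without peaks at gene starts and 19.0% with peaks from the median −log10 q of each list upward. Without peaks at gene starts, wt peaks near a start were dropped whole and ΔIkE120 peaks only trimmed, so the lists were not treated alike. The background is made of small domains, which can be lost with 1 peak: 3409 of the 18382 had no ΔIkE120 base at all. Of the next 300 domains in rank, which are closer in size, 24 (8.00%) had a ratio of 2/3 or lower, and of the 600 after these 68 (11.3%). The median ratio was 0.873 and 0.871 in these bands and 0.795 below rank 1200. The share of domains with a low ratio thus rose from band to band as the domains became smaller.

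The choice by the wt list bears on this ratio. When the 300 domains were joined and ranked from the ΔIkE120 list instead, the median ratio of ΔIkE120 to wt bases was 1.00, and with domains from the union of both lists it was 0.936. Divided by the ratio of all peak bases, the median of the wt-chosen members was 1.01. No loss or gain over the members as a whole can be read from 0.888. The largest domains of both lists were largely in the same places: 224 of the 300 members (74.7%) overlapped 1 of the 300 largest ΔIkE120 domains, and 223 of those 300 (74.3%) overlapped a member. Ranked by ΔIkE120 bases over the same intervals, 249 of the 300 members were still among the first 300 and 51 were not. Of the 20 largest, 16 were also among the first 20 by ΔIkE120 bases.

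The members with the lowest ratios were mostly of the lower ranks. *Cyb5a*, the gene of cytochrome b5 on chromosome 18, had 5764 wt and 2362 ΔIkE120 bases (0.410), and 7 of its 10 wt peaks had no ΔIkE120 peak. A domain at *Prkch*, a protein kinase C gene, had 7843 and 4093 (0.522), while a second member at this gene, chr12:73565230-73611850, had 6569 and 5527 (0.841). A domain without protein-coding gene at chr5:105615751-105650212, near *Lrrc8c*, had 7038 and 3970 (0.564), and one at chr3:103377942-103443128, 19.2 kb from *Trim33*, had 5929 and 3507 (0.591). The fifth lowest was the domain that contains IkE120. After it came those of the lactate transporter gene *Slc16a1* (0.632), of *Mxd4* and *Zfyve28* (0.640), of *Ccdc57* (0.642), of *Jup*, *P3h4*, *Fkbp10* and *Nt5c3b* (0.647) and of *Zfp706* (0.648). The domain of *Cyb5a* was thus further from the wt value than the domain that carries the deletion.

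At the other end, the highest ratio was found in a domain without protein-coding gene at chr5:148958569-148979278, 29.4 kb from *Katnal1*, with 5906 wt and 7164 ΔIkE120 bases (1.21). Among the next were, on chromosome 17, a domain at *H2-T-ps* and *Gm7030* (5323 and 6163, 1.16) and one over *Psmb9*, *Psmb8*, *Tap1* and *Tap2*, which encode subunits of the immunoproteasome and the peptide transporter of antigen presentation (7121 and 7828, 1.10). The others in the upper 10 were at *Agfg2* (1.13), at *Spata13* (1.13), at *Ubtf*, *Tmub2* and *Atxn7l3* (1.13), at *Fli1* (5887 and 6596, 1.12), at *Msi2*, an RNA-binding protein gene (1.10), near *Neurog1* (1.10) and at *Rtn4rl1* (1.08). No member came close to a ratio of 1.5.

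Within the members, bases at gene starts and bases elsewhere did not have the same ratio. Within 1 kb of a start of a protein-coding gene lay 27.7% of the wt peak bases of members, against 40.7% over all joined domains. These bases numbered 574870 in wt and 550417 in ΔIkE120 cells (ratio 0.957), and the bases away from starts 1498911 and 1280385 (0.854). Over all joined domains the ratios were 0.922 at starts and 0.697 away from them, so the order was the same outside the members. The 214 members that held a gene start had a median ratio of 0.892, and the 86 without one 0.874. In the next 300 domains these medians were 0.892 and 0.804. Among members with 5 or more gene starts, which were 36, the ratio lay between 0.765 and 1.04.

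Of the 2553 wt peaks in members, 2118 (83.0%) were overlapped by a ΔIkE120 peak by at least 1 base, against 73.8% of the 32000 wt peaks elsewhere. Members held more peaks in the upper part of the list by q, 56.0% against 49.5% elsewhere. When the wt list was divided at its median −log10 q of 4.12, overlap in the upper part was nearly complete, with 98.3% of peaks in members and 97.2% elsewhere. In the lower part it was 63.4% in members and 50.8% elsewhere. Of the 435 wt peaks in members without ΔIkE120 overlap, 411 were below this median (94.5%), much as elsewhere (94.7%). At least 1 such peak was found in 217 members, and in the other 83 every wt peak was overlapped. In the opposite direction, 138 of the 2278 ΔIkE120 peaks in members (6.06%) overlapped no wt peak, against 13.6% of all ΔIkE120 peaks, which include those outside every wt domain. Of the ΔIkE120 bases in members, 10.8% lay outside wt peaks, and of the wt bases 78.7% were shared. These shares were 9.61% and 77.8% in the next 300 domains and 6.84% and 73.5% over all joined domains. Of the 441219 wt bases in members without ΔIkE120 coverage, 150030 belonged to wt peaks with no overlap and 291189 to uncovered parts of overlapped peaks.

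The *Ikzf1* locus contributed 2 members. *Ikzf1* encodes Ikaros, a zinc finger protein that restrains proliferation in T cell precursors. The domain that contains IkE120, chr11:11555559-11570608, was of rank 282 and overlapped no protein-coding gene but the noncoding genes *Gm29945* and *Gm11998*. It held 5332 bases in 6 wt peaks and 3192 bases in 5 ΔIkE120 peaks, a ratio of 0.599. The wt peak over IkE120, chr11:11563705-11565348, had 1644 bases, a fold enrichment of 2.58 and a −log10 q of 9.83, the highest −log10 q of its domain. In ΔIkE120 cells a peak of 712 bases began 78 bases past the IkE120 interval, at chr11:11564652-11565363, with a fold enrichment of 3.74 and a −log10 q of 11.99. These values rank peaks within a list and are not on 1 scale between lists. This interval is the IkE120 window of the study's methods and not the deletion itself. The paper gives a longer deletion, whose ends on this build are not given in the sources used here. The 252 bases of the interval were all under the wt peak and under no ΔIkE120 peak. Without them the domain had 5080 wt and 3192 ΔIkE120 bases, a ratio of 0.628, which is not a value outside the deletion. Of the wt bases, 2295 were under no ΔIkE120 peak, and 1 wt peak of 385 bases, chr11:11569164-11569548, was not overlapped at all. The rank of this domain was near the threshold, and it was among the domains kept in 4 of the 11 other ways of building or choosing them. Its ratio was 0.599 in 3 of these and 0.162 when both lists were limited to peaks from their median −log10 q upward. Its rank of 282 alone decided that it was kept with 600 domains and dropped with 150.

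The *Ikzf1* gene itself overlapped 2 joined domains. The upstream one, chr11:11656377-11691959, was a member of rank 105 with 6933 wt bases in 6 peaks and 6482 ΔIkE120 bases in 7 peaks, a ratio of 0.935. Its longest wt peak, chr11:11684818-11687149, had 2332 bases, and the ΔIkE120 peak in its place 2125. All 6 wt peaks of this domain met a ΔIkE120 peak. The downstream one, chr11:11715000-11742356, had rank 654 and was no member, with 4112 wt and 3510 ΔIkE120 bases (0.854). Between IkE120 and *Ikzf1* stood a small domain of rank 6935, chr11:11623883-11636922, named after its values had been seen, with 1349 bases in 3 wt peaks and 211 bases in 1 ΔIkE120 peak (0.156). On the far side of IkE120, 3 domains lay at *Spata48*, and that of rank 7349 also overlapped *Zpbp*. Those of ranks 877 and 7349 had 3659 and 1304 wt bases and ratios of 0.861 and 0.940, and that of rank 17456, a lone peak of 247 bases, had no ΔIkE120 base. At the *Ikzf1* gene, both ratios were within the quartiles of the members.

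The sequence of members was examined only at promoters, because the genome of the build of the peak lists was not used here. RefSeq promoter windows (GRCm38.p6), from 250 bases before to 50 bases after a start, overlapped members 568 times for 460 protein-coding genes. Of these windows 445 (78.3%) were touched by a wt peak, against 42.1% of all 21263 windows. Members were chosen by wt peak bases, which favours this difference, so it is given as a description only. The windows in members had a median GC content of 60.7% and a median of 19 CpG dinucleotides, against 56.3% and 13 over all windows. Among windows with a wt peak, those in members had 61.7% and 22, and all together 62.3% and 23.

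Short motifs of lymphoid factors were counted on both strands. AGGAAG, the core bound by Ets factors, was in 33.1% of the windows in members, 31.96% of all windows with a wt peak and 34.4% of all windows. TGGGAA, the core bound by Ikaros, was in 23.8%, 21.5% and 24.5%. TGTGGT (Runx) was in 12.5%, 11.5% and 15.0%, and the E protein cores CAGCTG and CAGGTG were in 13.0% and 18.3% of member windows, 13.3% and 16.7% of windows with a wt peak and 15.6% and 19.7% of all. For TCF1 and LEF1, CTTTGA was in 13.2% of member windows, 10.9% of windows with a wt peak and 14.4% of all. The other core of these factors, AACAAAG, was in 2.64%, 3.40% and 5.01%. The Gata core, AGATAA, was in 3.70% of member windows against 5.26% of all windows with a wt peak and 9.65% of all windows. The AP-1 core, TGACTCA, was in 2.99%, 2.70% and 4.66%. None of these motifs contains another, and CAGCTG reads the same on both strands. Each of the 9 motifs was less frequent in member windows than in all windows. When only member windows with a wt peak were set beside all windows with one, AGGAAG (33.5%), TGGGAA (22.9%), CTTTGA (12.6%) and CAGGTG (17.1%) were more frequent in members. The other 5 were less frequent, among them TGTGGT (11.2%) and TGACTCA (2.47%). These differences were not tested, and a match is not a bound site.

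A few promoters of members show how the letters and the peaks lie together; they were picked after their values had been seen, from the list genes in members. The first pair are signalling genes whose windows were fully covered in both lists, with 300 of 300 bases. That of *Ptcra*, chr17:46763663-46763962 on the minus strand, has a GC content of 61.7% and 1 CpG, and that of *Cd247*, chr1:165788431-165788730 on the plus strand, 43.7% and 3 CpG. Capitals mark the motifs named above or their reverse complements.
Ptcra: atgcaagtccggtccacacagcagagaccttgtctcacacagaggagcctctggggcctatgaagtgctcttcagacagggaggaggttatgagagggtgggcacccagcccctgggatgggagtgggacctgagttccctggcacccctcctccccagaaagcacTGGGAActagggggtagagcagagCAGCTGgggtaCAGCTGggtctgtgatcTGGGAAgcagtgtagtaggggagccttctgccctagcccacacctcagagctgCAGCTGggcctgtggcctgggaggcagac
Cd247: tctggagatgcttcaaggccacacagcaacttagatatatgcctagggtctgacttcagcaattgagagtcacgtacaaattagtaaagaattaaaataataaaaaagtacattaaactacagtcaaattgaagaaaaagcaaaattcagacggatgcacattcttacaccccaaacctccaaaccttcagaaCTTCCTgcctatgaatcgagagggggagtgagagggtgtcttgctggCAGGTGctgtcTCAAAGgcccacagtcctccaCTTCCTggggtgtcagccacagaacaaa
In *Ptcra* the capitals are CAGCTG at 3 places and TGGGAA at 2. In *Cd247* they are 2 matches to AGGAAG on the other strand, CAGGTG, and the reverse complement of CTTTGA.

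*Ikzf1* and *Stat5b* have starts that differ in coverage within 1 member. The upstream start of *Ikzf1* (chr11:11685675-11685974, plus strand) was covered over all 300 bases in both lists, with a GC content of 81.3% and 52 CpG. The downstream start (chr11:11689927-11690226, plus strand) was covered over 0 bases in wt and 58 in ΔIkE120 cells, with 49.0% and 2 CpG. For *Stat5b*, the window chr11:100850532-100850831 was fully covered in both lists, and the window of the other start, chr11:100822521-100822820 on the minus strand, over 221 bases in wt and 0 in ΔIkE120 cells. The windows of *Ikzf1* and the latter window of *Stat5b* are printed to show this contrast.
Ikzf1 upstream: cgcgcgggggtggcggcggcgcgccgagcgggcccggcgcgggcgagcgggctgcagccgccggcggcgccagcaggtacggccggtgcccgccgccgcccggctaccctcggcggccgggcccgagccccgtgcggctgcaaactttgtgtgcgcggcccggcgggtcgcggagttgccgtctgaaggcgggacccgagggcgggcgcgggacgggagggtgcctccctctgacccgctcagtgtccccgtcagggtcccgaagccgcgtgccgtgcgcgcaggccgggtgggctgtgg
Ikzf1 downstream: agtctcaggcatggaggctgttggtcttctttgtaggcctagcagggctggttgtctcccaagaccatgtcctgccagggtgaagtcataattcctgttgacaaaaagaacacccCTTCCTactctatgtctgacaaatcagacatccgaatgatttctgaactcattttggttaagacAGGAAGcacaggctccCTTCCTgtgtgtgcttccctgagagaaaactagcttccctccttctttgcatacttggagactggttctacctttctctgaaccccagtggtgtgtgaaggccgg
Stat5b: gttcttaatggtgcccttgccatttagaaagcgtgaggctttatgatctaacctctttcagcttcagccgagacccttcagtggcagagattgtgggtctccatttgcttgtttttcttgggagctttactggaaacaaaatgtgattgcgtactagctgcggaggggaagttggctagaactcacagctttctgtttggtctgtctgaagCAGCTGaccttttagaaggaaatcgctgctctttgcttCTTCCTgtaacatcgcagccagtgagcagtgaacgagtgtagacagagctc
The upstream window of *Ikzf1* has none of the motifs, the downstream window AGGAAG at 3 places, and the window of *Stat5b* CAGCTG and AGGAAG at 1 place each.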

How the data were processed

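H3K27ac ChIP-seq peaks of 1 wt and 1 ΔIkE120 library were analysed; the 6 4C libraries of the series were not used here. Per the submitters' processing notes, Bowtie2 2.3.4.3, MACS2 2.1.1 and deepTools 3.2.1 were used (and Bowtie 1.0.0), without saying for which files. The authors deposited peak lists on GRCm38 with, for each peak, a score, a fold enrichment over background, and the p-value and q-value as −log10. Thresholds and the control of the peak caller are not given in the sources used here. The score column was not used, and no value was compared in height between lists. In the alternative with equal numbers of peaks, each list kept its peaks of highest −log10 q (ties by −log10 p).

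Joining and coverage were computed with Python 3.11.15, numpy 2.4.6, pandas 2.3.3 and scipy 1.17.1, and tested on simulated peaks against a base-by-base search. Genes came from RefSeq (GRCm38.p6). A gene was in a domain if 1 base overlapped. Starts came from RefSeq promoters and from gene ends, with strands by symbol from GENCODE where RefSeq promoters gave none (96.5% of protein-coding genes had a strand). Named are the 20 largest domains, the 10 lowest and 10 highest ratios, the 5 domains on each side of the threshold, those at *Ikzf1* and IkE120, those with the most peaks, longest span or no gene, and list members in domains. A few genes that this rule names are not reported here. The members and lists were chosen with earlier results of these data known. Alternatives changed the gap, the number of domains, the ranking value, the peaks entered, the list that chose, the scaling and the overlap. In the alternative without peaks at gene starts, wt peaks within 2.5 kb of a start were dropped whole. ΔIkE120 peaks were only trimmed to their parts outside these windows, so its ratios do not treat the lists alike.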

Additional observations from a re-analysis of the deposited data

How the results depend on the processing

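No paired analysis was possible because there was 1 library per genotype. Given here are the values that left the 95% exact binomial interval of the reported one (order-statistic interval for the median, 1.5 times for counts of genes). These intervals take domains or peaks of 1 library per genotype as independent and only set a cut for listing. They measure no spread between libraries or between ways of processing. For the share of wt peak bases the interval takes bases as independent and is far too narrow, so small moves are included. The share of domains with a ratio of 1.5 or higher was 0 throughout. The median ratio, 0.888 as reported, was 0.870 with ranking by span, 0.924 with equal numbers of peaks, 0.847 without peaks at gene starts, 1.00 with domains from the ΔIkE120 list, 0.936 with the union of lists and 1.01 with scaling by the list-wide ratio. The share with a ratio of 2/3 or lower, 4.33% as reported, was 9.33% with ranking by span, 12.3% without peaks at starts, 0% with domains from the ΔIkE120 list, 1.33% with the union, 1.00% with scaling and 19.0% with only peaks from the median q of each list upward. The share of wt peak bases was 4.17% and 14.4% with gaps of 5 and 25 kb, 4.84% and 13.8% with 150 and 600 domains, 7.87% with fold-weighted ranking, 7.47% with ranking by span, 8.70% with peaks from the median q upward, 8.24% with equal numbers and 11.6% without peaks at starts. Genes in domains numbered 335 and 1479 with gaps of 5 and 25 kb, 374 and 1187 with 150 and 600 domains, and 205 without peaks at starts. T cell list genes in domains were 20 with gaps of 5 kb, 20 with peaks from the median q upward and 19 without peaks at starts. The share of overlapped wt peaks was 77.7% when 50% of the peak had to be covered and 98.3% for peaks from the median q upward. Gaps, numbers of domains and removed peaks change these counts by construction; the cause of the other differences was not tested.

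With 300 domains kept, the alternatives overlapped 35.7% to 86.0% of the members. Depth was unknown and limits what a missing peak means. The sequence of peaks was not analysed here.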
